A study of Pan troglodytes with 38 samples.

Results

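Cells remove introns from newly made RNA with the spliceosome, a machine of small nuclear RNAs and proteins. The measurements below concern 54 genes of that machinery and its regulators in chimpanzee heart. They are every gene of the annotated chimpanzee gene table, which holds 31373 genes, whose symbol begins with SRSF, HNRNP, LUC7L, SF3A, SF3B or U2AF, together with CLK1, CLK2, CLK3, CLK4, SRRM1 and SRRM2. All 54 genes passed edgeR's filter on low counts, and 52 reached 6 CPM (counts scaled to a common library size) in some library, the lowest single count being 23 reads, for HNRNPA1L2.

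The genes fall into roles that are well described. SR proteins (the SRSF genes) bind exonic sequences and recruit the spliceosome, and they need to be phosphorylated on serines of their arginine-serine-rich tails to do so. The CLK kinases (CDC-like kinases) put these phosphates on in the nucleus and so release SR proteins from nuclear speckles, while SRRM1 and SRRM2 are large arginine-serine-rich coactivators, of which SRRM2 is a scaffold of the speckles. The hnRNP proteins coat nascent RNA and often oppose SR proteins, the LUC7-like proteins accompany the U1 particle at the start of the intron, and U2AF and the SF3A and SF3B complexes recognise the end of the intron and the branch point with the U2 particle. Transcripts of several CLK and SR genes are known to carry retained introns or poison exons through which the cell adjusts their amounts. In heart, splicing programmes set the isoforms of sarcomere proteins such as titin.

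Polyadenylated RNA from post-mortem hearts of 38 chimpanzees was sequenced, with 1 library per animal. The animals were captive-born and partly related, and their labels place them in a single group. They came from more than 1 primate research center, Yerkes among them. The paper states that some had been challenged with hepatitis B or C virus. Neither center nor virus was a term of the fits. The study's sample sheet dates 21 RNA extractions to 1 day of 2018 and 17 to 4 days that fell 2 years before; these are called the 2018 hearts and the earlier hearts here. By that sheet the libraries of the earlier hearts were older ones sequenced again and those of 2018 were new, so that extraction year, library preparation and the set of animals cannot be told apart. RNA integrity numbers (RIN, on which intact RNA scores high) ran from 4.2 to 7.6 in the earlier hearts and from 2.5 to 8.4 in the 2018 hearts. Human orthologs were not analysed here.

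Gene counts per library were between 43892814 and 132478050, with a median of 63749322 in the earlier hearts and of 63528761 in the 2018 hearts. The share of these counts on the 13 mitochondrially encoded genes was between 17.2% and 35% in the earlier hearts and between 21.5% and 60.1% in 2018. The 9 hearts 537, 558, 529, 4X0339, Little_R, 495, 4X0354, 4X0357 and 389, all of 2018, lay above every earlier heart. The libraries carried heart RNA: the 12 cardiomyocyte markers summed to 34290 to 94980 CPM in the earlier hearts and to 7398 to 92280 CPM in 2018, and none of the 12 was at 0 in any library. Since these are bulk tissues, fewer cells of a type and less RNA per cell cannot be told apart.

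Levels are given in CPM, the count of a gene over the total of its library brought to a common size, after scaling by TMM, a factor that sets most genes equal between libraries. Differences between the years are log2 values, 2018 minus earlier, each with its standard error (SE), from edgeR's quasi-likelihood test with sex as a further term. Their p-values were adjusted by the Benjamini-Hochberg method over all 15790 genes tested and called under 0.05. The animals were treated as independent in these tests.

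The first question was whether the levels of these genes followed the year of extraction. All 4 CLK kinases, SRRM1 and SRRM2 were higher in 2018, as were LUC7L, LUC7L3, U2AF1L4 and 6 of the 12 SR proteins. Of the 21 hnRNP genes 2 were higher and 3 lower, and 1 of the 9 SF3A and SF3B subunits was lower. In total 17 of the 54 genes were called higher (31.5%, against 11.2% of all genes tested) and 4 were called lower (7.41%, against 4.82%). The median difference was 0.15 over the 54 genes and -0.01 over all genes.

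All 4 CLK kinases were called higher in 2018. CLK1 had a lowest level of 22.9 CPM, a median of 53.1 CPM and a highest level of 108 CPM in the earlier hearts, and 41.8, 78.9 and 420.1 CPM in 2018. The groups overlapped, and 6 of the 21 hearts of 2018 stood above the highest earlier heart. The difference was 1.13 (SE 0.30, edgeR adjusted p = 0.00699), or 2.19-fold.

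CLK2 ran from 9.89 to 18 CPM with a median of 12 CPM in the earlier hearts and from 10.1 to 48.6 CPM with a median of 17.9 CPM in 2018. In 10 hearts of 2018 it exceeded every earlier heart, a difference of 0.88 (SE 0.18, edgeR adjusted p = 0.000954). CLK3 ran from 13.2 to 24.1 CPM (median 18.1 CPM) and from 14.9 to 55.2 CPM (median 25 CPM), with 12 hearts of 2018 above all earlier ones. Its difference of 0.58 (SE 0.13, edgeR adjusted p = 0.00166) was the smallest of the 4. CLK4 ran from 11.8 to 29.6 CPM (median 17.1 CPM) and from 14.3 to 112.9 CPM (median 23.7 CPM), a difference of 0.69 (SE 0.20, edgeR adjusted p = 0.0162). In each of the 4 kinases the upper end of 2018 reached beyond that of the earlier hearts, and no heart of 2018 lay below them.

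**Figure D1:**
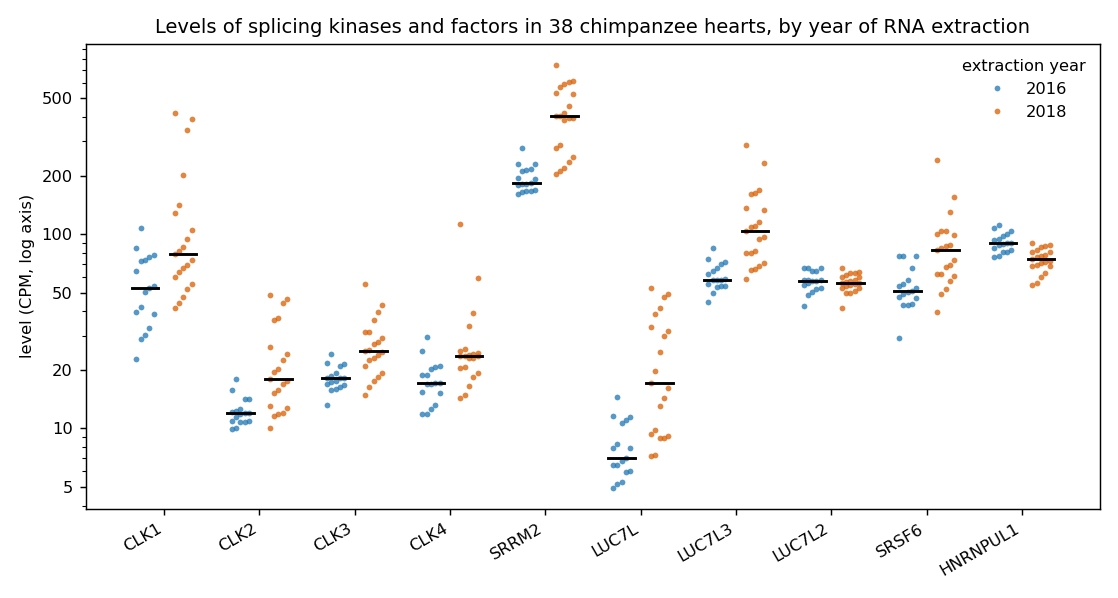
Level (CPM, log axis) of 10 genes in each of 38 hearts, blue for the 17 earlier hearts and orange for the 21 of 2018, with black bars at the medians. CLK1 to CLK4, SRRM2, LUC7L, LUC7L3 and SRSF6 extend upward in 2018, LUC7L2 has medians of 57.1 and 56.2 CPM, and HNRNPUL1 lies lower.

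SRRM2 gave the smallest p of all 54 genes. It ran from 160.9 to 279 CPM (median 183 CPM) in the earlier hearts and from 204 to 742 CPM (median 404 CPM) in 2018. Every one of the 21 hearts of 2018 exceeded the earlier median and 15 exceeded the highest earlier heart, a difference of 1.09 (SE 0.15, edgeR adjusted p = 6.96e-06). SRRM1, its smaller partner, ran from 25.5 to 38.7 CPM and from 27.2 to 110.5 CPM, a difference of 0.41 (SE 0.12, edgeR adjusted p = 0.0164).

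Of the 3 LUC7-like genes 2 were called higher. LUC7L had the largest difference of the 54 genes, 1.5 (SE 0.26, edgeR adjusted p = 8.94e-05), or 2.82-fold, from levels of 4.96 to 14.5 CPM (median 7.04 CPM) in the earlier hearts and of 7.22 to 52.8 CPM (median 17.2 CPM) in 2018. LUC7L3 ran from 44.7 to 85.2 CPM (median 58.4 CPM) and from 58.8 to 288 CPM (median 104.4 CPM), with 13 hearts of 2018 above all earlier ones and a difference of 0.94 (SE 0.17, edgeR adjusted p = 0.000138). All 21 hearts of 2018 lay above the earlier median of both genes. LUC7L2 had medians of 57.1 CPM and 56.2 CPM, a difference of -0.02 (SE 0.06, edgeR adjusted p = 0.859), and 1 heart of 2018 fell below the earlier range. The 3 proteins are close relatives, and the differences among their 3 estimates were not tested against each other.

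Of the 12 SR protein genes 6 were called higher, none was called lower, and 11 of the 12 estimates were above 0, with a median of 0.41. SRSF6, which ran from 29.2 to 77.5 CPM (median 50.7 CPM) in the earlier hearts, reached 241 CPM in 2018 (lowest 39.6, median 82.8 CPM), with 11 hearts above all earlier ones and a difference of 0.70 (SE 0.17, edgeR adjusted p = 0.00389). SRSF1, the archetypal splicing factor of the family, differed by 0.55 (SE 0.12, edgeR adjusted p = 0.00143), from medians of 14 CPM and 18.7 CPM. SRSF10, whose splicing activity depends on its phosphorylation state, differed by 0.42 (SE 0.13, edgeR adjusted p = 0.0182), and SRSF2, an exonic enhancer-binding factor, by 0.40 (SE 0.13, edgeR adjusted p = 0.0286).

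SRSF5 varied widely in the earlier hearts, where it was at 15.7 CPM in the lowest heart and 144 CPM in the highest (median 54.3 CPM), while in 2018 it ran from 50.8 to 165.7 CPM (median 107 CPM). Its difference was 0.66 (SE 0.21, edgeR adjusted p = 0.0277). SRSF7 was the last of the 6, at 0.47 (SE 0.17, edgeR adjusted p = 0.0479), close to the threshold. SRSF3, which couples splicing to export, was the member with the largest p, at 0.18 (SE 0.16, edgeR adjusted p = 0.438). The 1 negative estimate belonged to SRSF8, a gene copied from a spliced transcript whose reads cannot be told from those of close copies with certainty, at -0.37 (SE 0.14, edgeR adjusted p = 0.0647).

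Of the 21 hnRNP genes, 2 were called higher, 3 lower and 16 in neither direction, with a median of 0.03. HNRNPUL1, an hnRNP U-like protein, was lower by the smallest p of the family: it ran from 75.9 to 112 CPM (median 90.2 CPM) in the earlier hearts and from 54.7 to 89.6 CPM (median 74.7 CPM) in 2018. None of the 21 hearts of 2018 reached the earlier median, and 11 lay below the whole earlier range, a difference of -0.30 (SE 0.07, edgeR adjusted p = 0.00268).

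HNRNPA1, the classic antagonist of SRSF1, ran from 120.1 to 208 CPM (median 146 CPM) and from 58.2 to 182 CPM (median 113 CPM), with 13 hearts of 2018 below all earlier ones. Its difference was -0.49 (SE 0.12, edgeR adjusted p = 0.0035). HNRNPR, an RNA-binding relative of hnRNP Q, differed by -0.36 (SE 0.10, edgeR adjusted p = 0.0121), with 10 hearts of 2018 below the earlier range. HNRNPA1 has many processed copies in primate genomes, and reads shared with them may be missing from its count.

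On the higher side, HNRNPA3 ran from 61.5 to 137 CPM and from 69.7 to 211 CPM, a difference of 0.43 (SE 0.13, edgeR adjusted p = 0.0226). HNRNPA1L2, an intronless copy of HNRNPA1, was near the floor of these genes with medians of 0.744 CPM and 0.964 CPM, and its difference of 0.53 (SE 0.17, edgeR adjusted p = 0.0339) is uncertain, since the copy closely resembles its parent. How many reads the pair shares was not tested. HNRNPM, the member with the largest p, differed by 0.03 (SE 0.08, edgeR adjusted p = 0.813).

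The U2 subunits had small estimates. None of the 3 SF3A genes was called by edgeR (1, SF3A1, had an unadjusted p under 0.05), and their estimates lay between -0.18 (SF3A1) and 0.12 (SF3A2). SF3A3 ran from 28.8 to 53.4 CPM (median 36.6 CPM) in the earlier hearts and from 28.9 to 50.9 CPM (median 38.6 CPM) in 2018, a difference of -0.06 (SE 0.08, edgeR adjusted p = 0.656). Of the 6 SF3B genes only SF3B5, a small structural subunit, was called: it ran from 22.7 to 48.4 CPM and from 9.43 to 38.9 CPM, a difference of -0.34 (SE 0.12, edgeR adjusted p = 0.0446). SF3B1, the subunit that holds the branch point, was at 0.15 (SE 0.09), and SF3B6, which contacts the branch point adenosine, at -0.02 (SE 0.10, edgeR adjusted p = 0.921).

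U2AF1 and U2AF2, the small and large subunits of the factor that reads the end of the intron, had estimates of 0.15 (SE 0.10) and 0.13 (SE 0.10), and neither was called, with edgeR adjusted p = 0.322 and 0.377. U2AF1L4, a paralog of the small subunit that can share reads with it, was called higher at 0.67 (SE 0.16, edgeR adjusted p = 0.00408), from medians of 5.16 CPM and 7.79 CPM. Over the 9 SF3A and SF3B genes together, 0 were called higher, 1 was called lower, and the median difference was -0.06. At an unadjusted p under 0.05, edgeR gave 0 higher and 3 lower of these 9, and over all 54 genes 21 higher and 7 lower, against 18% and 12.8% of all genes tested.

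**Figure D2:**
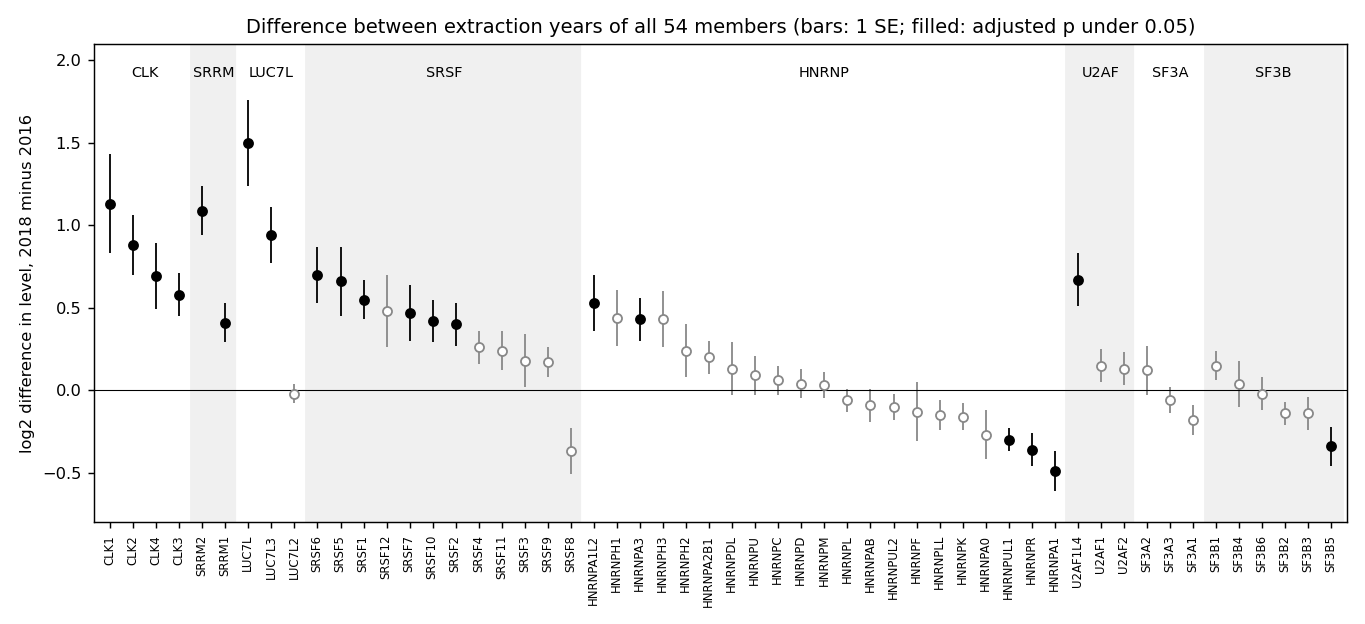
Log2 difference in level, 2018 minus earlier, of each of the 54 genes, grouped by family, with bars of 1 SE; filled points passed an adjusted p of 0.05. The CLK, SRRM and most SRSF estimates lie above 0, those of SF3A and SF3B lie within 0.34 of it, and the hnRNP genes run from 0.53 down to -0.49.

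The same fit was read for 167 other genes of splicing in 6 lists, of which 166 were tested. Over all 6 lists 23 genes were called higher (13.9%) and 10 lower (6.02%), near the shares over all genes, and the median was -0.01. The list of SR-related and speckle proteins held 12 of the 23 higher calls: 12 of its 31 genes were higher (38.7%), 1 was lower, and the median was 0.25. The lists were chosen with earlier results of these data known, so this share cannot show an enrichment of speckle genes. Cyclin L2 (CCNL2), a partner of speckle kinases, rose from a median of 25.7 CPM to one of 78.9 CPM, a difference of 1.70 (SE 0.25, edgeR adjusted p = 1.51e-05). PNISR, a speckle protein with an arginine-serine-rich tail, was above the highest earlier heart in 18 of 21 hearts and differed by 1.04 (SE 0.15, edgeR adjusted p = 9.71e-06). RBM3, a cold-induced RNA-binding protein, was the lower one, at -1.08 (SE 0.31, edgeR adjusted p = 0.0135).

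In the list of snRNP proteins and the tri-snRNP, 2 of 38 were higher and 2 lower. SNRNP70, the U1 protein that SR proteins contact, ran from 39.9 to 67.7 CPM in the earlier hearts and from 54.9 to 231 CPM in 2018, a difference of 1.26 (SE 0.19, edgeR adjusted p = 2.09e-05). PRPF3, a protein of the tri-snRNP, differed by 0.40, while the helicase SNRNP200 and the tri-snRNP bridge PRPF6 differed by -0.22 and -0.23. Of 36 catalytic-step proteins and helicases, 4 were higher and 3 lower. The DEAD-box helicase DDX17 rose by 1.02 (SE 0.16, edgeR adjusted p = 2.41e-05), with 18 hearts above all earlier ones, and its relative DDX5 by 0.51 (SE 0.13), while CTNNBL1 and SLU7 differed by -0.37 and -0.30.

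Of 10 genes in a list of other kinases drawn up for SR proteins none was called higher, and the list median was -0.17. In that list 1 gene, HIPK3, was called lower at -0.41 (SE 0.12, edgeR adjusted p = 0.0148). Whether HIPK3 acts on SR proteins was not tested. Whether the CLKs differed from these kinases was not tested. Of 36 regulators of alternative splicing, 5 were higher and 2 lower, among them NOVA2 at 1.53 (SE 0.30) and RBM4B at 0.52 on the higher side and FUBP3 at -0.46 and RBM47 at -0.86 on the lower. Of 15 exon junction and nonsense-mediated decay genes none was higher and 1, UPF2, was lower at -0.28.

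The highest levels were reached in few hearts. Of the 54 genes, 42 reached their highest level in a heart of 2018: 19 in Little_R, 9 in 4X0354 and 9 in 529. The lowest level fell in a heart of 2018 for 27 genes and in an earlier heart for 27. The same counts over all genes were not made, so these show no trait of the 54 genes. Of the 38 hearts, 21 are of 2018. Little_R had the smallest library, with 43892814 gene counts, and the paper describes it and 537 as outlier samples. Low extremes were spread more widely: 4X0354 had the lowest level of 8 genes, the earlier heart 462 that of 7, 4X0339 that of 6, Little_R that of 4 and 529 that of 0. CLK1 was at 420.1 CPM in 4X0354, 393 CPM in Little_R, 345 CPM in 529, 201 CPM in 537, 140.5 CPM in 558 and 128 CPM in 495, and these were the 6 hearts above all earlier ones. All 6 are among the 9 hearts with the highest mitochondrial share. Next came 4X0333, with CLK1 at 106 CPM, SRRM2 at 609 CPM and LUC7L at 24.7 CPM at the lowest mitochondrial share of 2018, 21.5%.

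Within the 21 hearts of 2018 the levels of 8 of the 17 genes called higher by year were set beside the mitochondrial share. These were the 4 CLKs, LUC7L, LUC7L3, SRRM2 and SRSF6, picked with earlier results of these data known, and all 8 correlated positively. For the other genes called higher, Pearson's r of log2 CPM was 0.68 (HNRNPA3), 0.62 (HNRNPA1L2), 0.61 (U2AF1L4) and 0.55 (SRSF7). It was 0.4 for SRSF10, 0.35 for SRSF5, 0.34 for SRSF1, 0.31 for SRRM1 and 0.12 for SRSF2. For LUC7L, Pearson's r of log2 CPM was 0.77 (permutation p = 7e-05, adjusted 0.00112) and Spearman's rho 0.65 (permutation p = 0.00191, adjusted 0.0153), and r was 0.72 without the 2 hearts farthest from the median share. For CLK1, r was 0.67 (permutation p = 0.0009, adjusted 0.0036) and rho 0.54 (permutation p = 0.0114, adjusted 0.0304), with r of 0.66 without those 2 hearts. Over the 8 genes r lay between 0.47 and 0.77, all 8 passed the adjusted threshold by r and 7 by rho. The 8 had been picked as higher in 2018, and those calls drew in part on the same hearts of high share. The permutation p-values do not allow for that selection, so they are no separate evidence of a relation. An r of at least 0.47 was common: 16 of the 54 genes (29.6%) and 22.5% of 14662 other genes without a count of 0 reached it, and 7 of the 54 (13%) and 26.9% of the others had a negative r of that size or more. For LUC7L2 and HNRNPUL1, r was -0.29 and -0.26. All of them share their library and scaling factor with the mitochondrial counts. Within the 17 earlier hearts, where the share reached no more than 35%, r lay between -0.55 and 0.34. There, 1 relation, that of LUC7L, passed by r (-0.55, permutation p = 0.022, adjusted 0.0441) and none by rho, and its r was -0.24 without the 2 farthest hearts. Adjustment was over 16 relations.

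**Figure D3:**
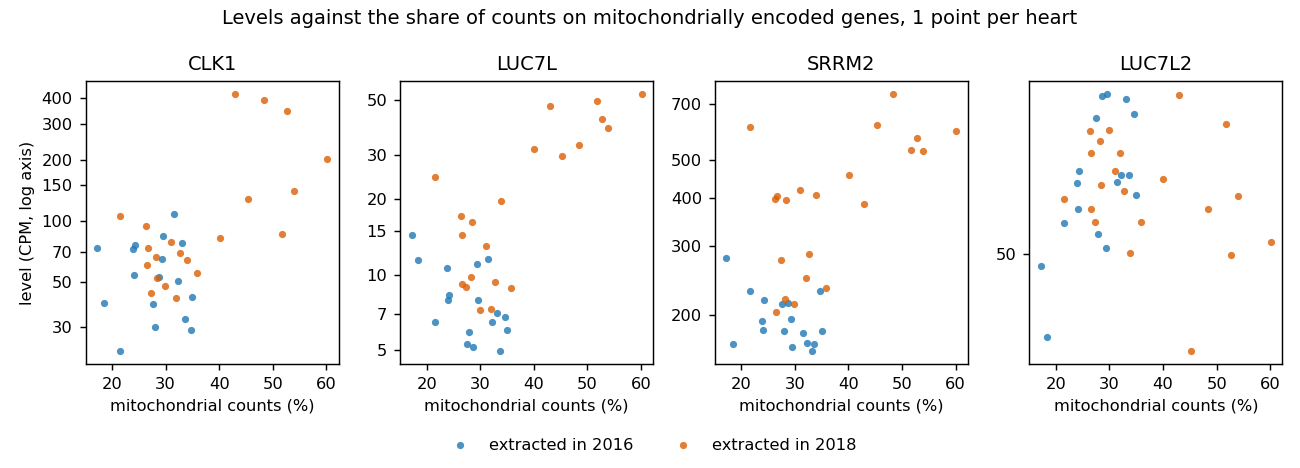
Level (CPM, log axis) of CLK1, LUC7L, SRRM2 and LUC7L2 against the percentage of counts on mitochondrially encoded genes, 1 point per heart, blue for the earlier hearts and orange for 2018. The 6 orange points with CLK1 above every blue point all lie at 43% or more, and the orange point at 21.5% is 4X0333 with CLK1 at 106 CPM. Each panel has its own vertical range, and that of LUC7L2 spans only 41.8 to 67.3 CPM.

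With the mitochondrial share as a further term, 4 of the 54 genes were called higher (LUC7L, LUC7L3, SRRM2 and SRSF1; 2.64% of all genes) and none lower (0.534%). The difference of CLK1 was then 0.47 (edgeR adjusted p = 0.455) and that of SRRM2 0.87 (edgeR adjusted p = 0.00122). Without the 9 hearts, 3 genes were called higher (LUC7L3, SRRM2 and SRSF1; 2.51% of all genes) and 2 lower (HNRNPUL1 and SF3B4; 1.77%). CLK1, CLK2, CLK3 and CLK4 were then at 0.24, 0.29, 0.29 and 0.18, none of them called, with edgeR adjusted p from 0.105 to 0.53, against 0.43 for LUC7L3 and 0.76 for SRRM2 (edgeR adjusted p = 0.0119 and 0.00187). Without only the 5 hearts of highest share, 10 were called higher and 2 lower (6.12% and 2.95% of all genes), CLK2 and CLK3 among them and CLK1 (0.69, edgeR adjusted p = 0.0904) and CLK4 (0.58, edgeR adjusted p = 0.0771) not. The part of the mitochondrial share in these differences was not tested beyond these fits.

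The balance of calls moved with the scaling. With the plain total of gene counts as library size, so that mitochondrial counts enter the denominator, 8 of the 54 genes were called higher and 7 lower (5.56% and 9.56% of all genes), with a median of all genes of -0.20. CLK1 was then at 0.83 and SRRM2 at 0.86, both called, CLK4 was at 0.46 (edgeR adjusted p = 0.0888), and SF3A1, SF3B2 and SRSF8 were added to the lower calls. Among Yerkes animals alone, 9 earlier and 12 of 2018, LUC7L, LUC7L3 and SRRM2 were called higher and none lower (1.92% and 0.156% of all genes). Against 2018, the 9 hearts of the largest earlier date alone gave 4 higher and 1 lower (3.92% and 0.955%), and the score deposited by the authors, tested with limma, gave 7 higher and 1 lower of 53 genes (3.57% and 0.546%). No CLK kinase was called among Yerkes animals or with the largest earlier date alone, while CLK2, CLK3 and CLK4 were called with the score.

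Markers of other cell types were read in the same fit. None of the 12 cardiomyocyte, 7 fibroblast or 5 endothelial markers tested was called. Of 6 smooth muscle and pericyte markers PDGFRB was higher, of 4 adipocyte markers PLIN1, FABP4 and CIDEC were higher, and of 8 leukocyte markers CD163, CD14 and LYZ were lower. The summed leukocyte markers ran from 33 to 527 CPM (median 91.8 CPM) in the earlier hearts and from 18.7 to 246 CPM (median 42.7 CPM) in 2018, and the adipocyte markers from 64.2 to 562 CPM (median 130 CPM) and from 107.5 to 827 CPM (median 275 CPM), with ADIPOQ and LEP at 0 in some libraries. Of 3 erythrocyte and 4 Schwann cell markers tested none was called. The part of these cells in the splicing genes' differences was not tested.

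The second question was whether levels followed RNA integrity. With sex and year as further terms, 0 of the 54 genes were called by edgeR (0% of 16462 genes in either direction), 7 had an unadjusted p under 0.05 (13%, against 13.8% of all genes). DESeq2 called 0 of the 54 as well, against 0.706% of all genes higher and 0.679% lower. The slopes of the 4 kinases per RIN unit were 0.05 (SE 0.09) for CLK1, 0.01 (SE 0.06) for CLK2, -0.03 (SE 0.04) for CLK3 and -0.02 (SE 0.06) for CLK4. The slopes of SRRM2 and LUC7L were 0.02 (SE 0.05) and -0.06 (SE 0.08). The steepest of all 54 were 0.14 (SE 0.06, edgeR adjusted p = 0.275) for HNRNPF and -0.13 (SE 0.05, edgeR adjusted p = 0.204) for U2AF1L4.

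Within the 21 hearts of 2018, the single extraction date with the widest range of RIN, 0 of the 54 genes were called and 0 had an unadjusted p under 0.05 (7.49% of all genes). Without the 5 hearts of 2018 with the highest mitochondrial share, edgeR again called 0 of 54 (0% of all genes in either direction), but 9 had an unadjusted p under 0.05 (16.7%, against 15.7% of all genes), among them CLK2, CLK3 and LUC7L. In all 21 hearts the largest kinase slope was that of CLK1, 0.12 (SE 0.13, edgeR adjusted p = 0.842). Within the 17 earlier hearts, 0 of 54 were called (0.0123% of all genes, all lower), and 9 had an unadjusted p under 0.05 (12.6% of all genes), 8 of them with a slope below 0. SF3A3 at -0.19 (SE 0.05), HNRNPH2 at -0.26 (SE 0.07) and SRSF3 at -0.22 (SE 0.08) were among these 8. The difference of slopes, 2018 minus earlier, was above 0 in 42 of 54 genes and in 51.56% of all genes. Its median was 0.07, against 0.01 over all genes. The 54 genes share the same hearts, so their signs are not independent. By edgeR 0 of the 54 passed the test of that difference (4 at an unadjusted p under 0.05: SF3A3, HNRNPC, SRSF7 and HNRNPH2, beside 6.4% of all genes).

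**Figure D4:**
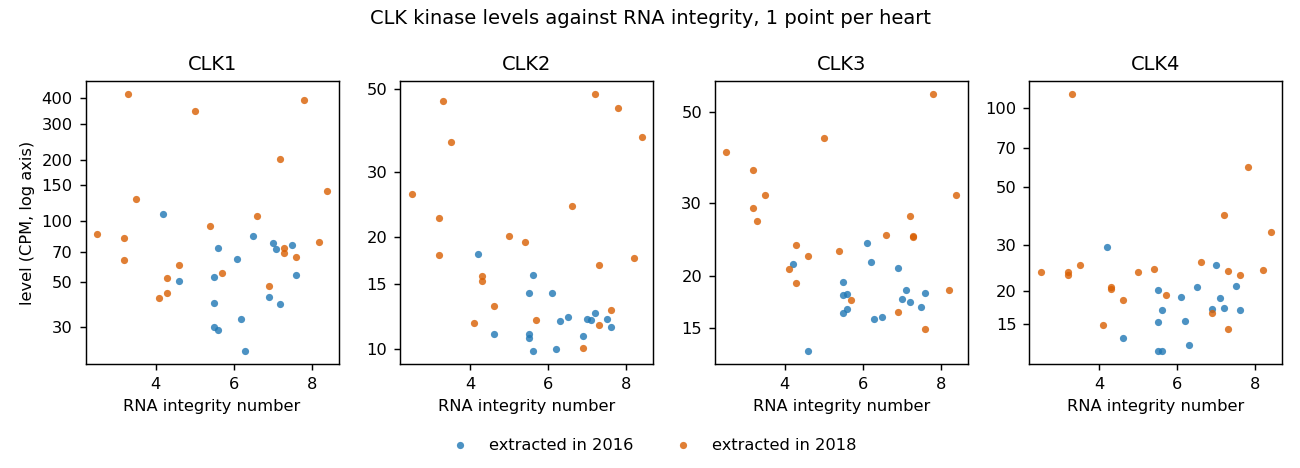
Level (CPM, log axis) of the 4 CLK kinases against RNA integrity number, 1 point per heart, blue for the earlier hearts and orange for 2018. The hearts of 2018 with high CLK2 lie at both ends of the RIN axis, and the straight-line slopes (0.05, 0.01, -0.03 and -0.02 per unit for CLK1 to CLK4) are near 0.

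Hearts with high CLK levels lay at low and at high RIN. CLK2 was at 46.4 CPM in 4X0354 (RIN 3.3) and at 36 CPM in 495 (RIN 3.5), and at 48.6 CPM in 537 (RIN 7.2), 44.5 CPM in Little_R (RIN 7.8) and 37.1 CPM in 558 (RIN 8.4). When the 5 hearts with the highest mitochondrial share (537, 558, 529, 4X0339 and Little_R) were left out, 1 gene, SF3A2, was called, with a slope of -0.16 (SE 0.04, edgeR adjusted p = 0.0394), beside 0.733% of all genes called higher and 1.07% lower. Then 34 of the 54 slopes were below 0 (63%, against 53.9% of all slopes), and 14 had an unadjusted p under 0.05 (25.9%, against 21.7% of all genes). The kinase slopes became -0.14 (SE 0.09) for CLK1, -0.15 (SE 0.05) for CLK2, -0.09 (SE 0.03) for CLK3 and -0.14 (SE 0.07) for CLK4, with edgeR adjusted p = 0.327, 0.0917, 0.129 and 0.24. LUC7L and LUC7L3 had slopes of -0.21 (SE 0.07, edgeR adjusted p = 0.0988) and -0.15 (SE 0.05, edgeR adjusted p = 0.0816). None of these 6 genes passed the threshold, and the sign of CLK1 and CLK2 changed with those 5 hearts.

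Of the 6 pairs of kinases, 5 passed by both r and rho in 2018 and 2 in the earlier hearts. The difference between the years was not tested. Pearson's r of log2 CPM between CLK1 and CLK4 was 0.87 over the 17 earlier hearts (permutation p = 2e-05, adjusted 8e-05; rho 0.86, permutation p = 3e-05, adjusted 9e-05; r 0.81 without the 2 farthest hearts). Over the 21 hearts of 2018 it was 0.83 (permutation p = 2e-05, adjusted 8e-05; rho 0.88, permutation p = 1e-05, the smallest that 100000 permutations give, adjusted 4e-05; r 0.68 without the 2 farthest hearts). CLK2 followed CLK4 in 2018 with r of 0.83 (permutation p = 1e-05, adjusted 8e-05; rho 0.91, permutation p = 1e-05, adjusted 4e-05; r 0.86 without 2 hearts). CLK3 was the loosest: its r with CLK1 was 0.11 in the earlier hearts (permutation p = 0.669; rho 0.08, permutation p = 0.773) and 0.67 in 2018 (permutation p = 0.0008, adjusted 0.00192; rho 0.70, permutation p = 0.00052, adjusted 0.00104; r 0.65 without 2 hearts). Of 12 relations, 6 in each year, 3 passed in the earlier hearts by r and 2 by rho, and 5 and 6 in 2018. The weakest pair of 2018 was CLK3 and CLK4, with r of 0.44 (permutation p = 0.0486, adjusted 0.0648) and r of 0.32 without 2 hearts. Its rho was 0.54 (permutation p = 0.0129, adjusted 0.0221). Shares over all genes were not computed for these pairs as a set. High r with CLK1 was common in 2018, where 22.8% of 14662 other genes had an r of at least 0.53. In the earlier hearts 1.43% had an r of at least 0.58. All levels of 1 heart share its library and its scaling factor.

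CLK1 was then set beside each of the other 53 genes within each year, 106 relations in all. In 2018, 30 passed by r and 25 by rho, and in the earlier hearts, 5 and 4. The smallest r that passed in 2018 had a size of 0.53; 24 of the 53 genes (45.3%) and 22.8% of the 14662 other genes had an r of at least 0.53, and 6 (11.3%) and 25.9% of the others a negative one of that size or more. In the earlier hearts that size was 0.58, reached above 0 by 4 of the 53 (7.55%) and 1.43% of the others and below 0 by 1 (1.89%) and 0.955%. The strongest positive relations of 2018 were with HNRNPH1 (r 0.91, rho 0.85, r 0.90 without 2 hearts), LUC7L3 (r 0.89, rho 0.86) and SRSF10 (r 0.89, rho 0.77). For all 3 the permutation p of r was 1e-05, the smallest possible, and the adjusted p was 0.000132. HNRNPH1 and HNRNPH2 are near-identical in parts, and reads shared between them may be missing from either count. CLK1 and SRSF5, by contrast, were negatively correlated in the earlier hearts, with r of -0.69 (permutation p = 0.00217, adjusted 0.00958), rho of -0.73 (permutation p = 0.00128, adjusted 0.00646) and r of -0.78 without 2 hearts. In 2018 the sign was positive and the relation did not pass, with r of 0.30 (permutation p = 0.18, adjusted 0.368) and rho of 0.24 (permutation p = 0.291, adjusted 0.54).

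On the negative side in 2018 stood HNRNPUL2 (r -0.88, rho -0.77, r -0.78 without 2 hearts), SF3B5 (r -0.81, rho -0.74) and HNRNPA1 (r -0.71, rho -0.76), with adjusted permutation p of r of 0.000132, 0.000132 and 0.00256. HNRNPUL2 is a second hnRNP U-like protein. The same 2 hearts, 4X0354 and Little_R, hold the upper end of these relations, and the relations with the 3 positive and 3 negative genes named kept their sign without them, with r of 0.81 to 0.90 and of -0.72 to -0.78.

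The third question, which the study asked of all genes, was how strongly levels vary between animals. Variability was measured as dispersion, the natural log of a gene's overdispersion (variance beyond counting error in a negative binomial model) minus the trend at its mean level, so that 0 marks a gene of usual variability for its level. Of the 54 genes, 52 reached 6 CPM in some library and entered this measure, among 13121 genes. Of these, 25 of 52 lay above 0 (48.1%, against 44.9% of all genes), and their median was -0.11 against -0.12. With TMM library sizes in place of the orthologous exon total, 18 of 52 lay above 0 (34.6%, against 44.9%), and the medians were -0.25 and -0.11. Differences between families were not tested.

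The CLK kinases were variable, with all 4 above 0 and a median of 1.09. CLK1 had the highest dispersion of the 52 genes, 1.86 (SE 0.27, from redrawing the animals), rank 406 of 13121. LUC7L followed at 1.70 (SE 0.19, rank 572), CLK2 at 1.10 (SE 0.30, rank 1571), CLK4 at 1.09 (SE 0.50), LUC7L3 at 1.08 (SE 0.26) and SRRM2 at 1.06 (SE 0.16). CLK3 was at 0.37 (SE 0.26) and SRRM1 at 0.19 (SE 0.50), neither far from 0 beside its error. The 11 SR genes measured had a median of 0.18 with 8 above 0, and SRSF5 was highest at 0.96 (SE 0.25). Their median was -0.08 with TMM library sizes and -0.35 in the earlier hearts alone, with 4 of 11 above 0 in each.

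Most genes of the U2 particle and most hnRNP genes lay below 0. LUC7L2 was among the steadiest genes of the heart, at -2.10 (SE 0.29), rank 13101 of 13121. HNRNPUL2 was at -1.70 (SE 0.35, rank 12940) and HNRNPK, an abundant C-rich RNA-binding protein, at -1.54 (SE 0.33, rank 12762). The 3 SF3A genes had a median of -1.02, the 6 SF3B genes one of -0.89 and the 20 hnRNP genes one of -0.61. Above 0 were 6 of the 20 hnRNP genes, HNRNPH1 highest at 0.73, and SF3A2 at 0.30, SF3B4 at 0.11 and U2AF1L4 at 0.24, each the 1 such gene of its family.

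**Figure D5:**
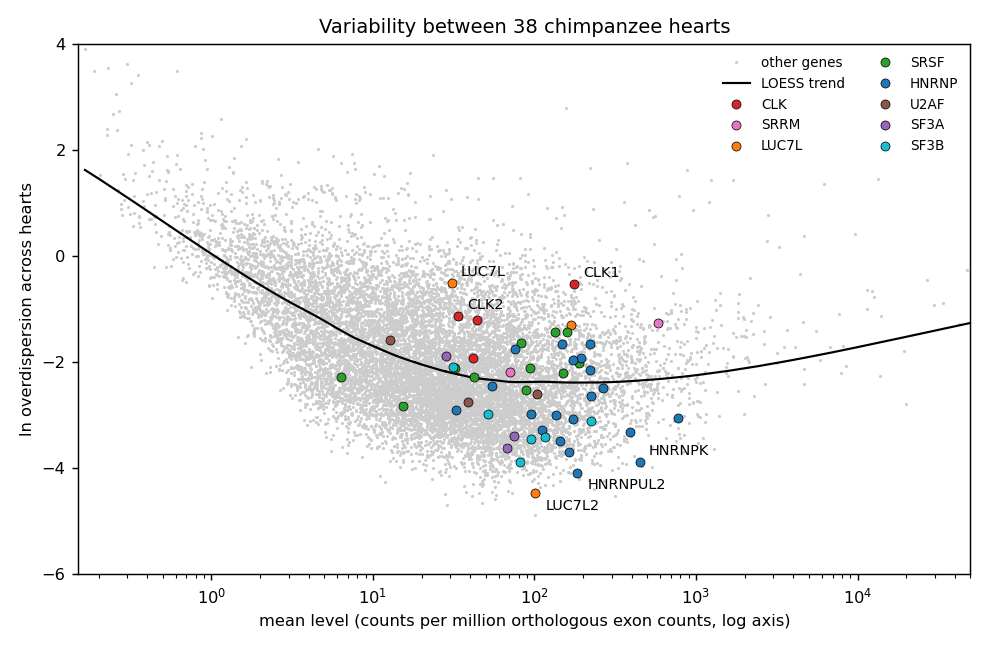
Natural log of overdispersion across hearts against mean level (CPM on the orthologous exon total, log axis) for 13121 genes in grey, with the LOESS trend in black and 52 splicing genes coloured by family; 3 genes lie outside the axes. CLK1, LUC7L and CLK2 stand above the trend, and LUC7L2, HNRNPUL2 and HNRNPK near the lower edge of the cloud.

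Most of these high values were lower when the earlier hearts were taken alone. With 2018 alone, CLK1, CLK2, CLK4 and LUC7L were at 1.72, 1.13, 1.16 and 1.52, and with the earlier hearts alone at 1.32, -0.51, 0.13 and 0.43. CLK3 went from 0.33 in 2018 to -0.86 in the earlier hearts, LUC7L3 from 0.83 to -0.67 and SRRM2 from 0.52 to -0.52. CLK1 thus stayed above the trend in both years. SRSF5 went the other way, from -0.20 in 2018 to 1.73 in the earlier hearts, and LUC7L2 stayed low in both, at -2.31 and -1.45. The differences between the years' dispersions were not tested.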

How the data were processed

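Poly(A) RNA of 38 hearts was sequenced by the study as 75 bp single-end reads. The authors aligned them with STAR to Pan_tro_3.0 and deposited 1 raw count per gene and library, here read for 31373 genes, of which 18040 identifiers have a symbol (where 2 share one, the identifier with the higher mean was kept). The library kit, TruSeq, does not mark strand, so reads of a gene and an overlapping antisense gene cannot be told apart. A second table of raw counts on exons orthologous to human, which the authors obtained with featureCounts 1.6.3, gave library sizes only, as its identifiers carry no symbols. The authors also deposited a score per gene (log CPM standardized by gene, then quantile normalized by animal; 13545 genes, 37 animals), used as an alternative. In all, 52 per-sample columns, human ones included, were not used. No 2 libraries were identical.

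Extraction year, RIN and sex came from the study's sample sheet as technical covariates. Extraction was by kit or Trizol. Counts were fitted with edgeR 4.0.16 (TMM, filterByExpr, quasi-likelihood test, Benjamini-Hochberg, 0.05) in R 4.3.3 on all genes, with terms for sex and year, for sex, year and RIN, for sex and RIN within a year, and for the RIN by year product. DESeq2 1.42.0, limma 3.58.1 (voom), other library sizes, filters, covariates and sets of libraries were alternatives. Overdispersion was fitted by maximum likelihood with the orthologous exon total as offset (14408012 to 81603350), for genes that reached 6 CPM in 1 library or more, with a LOESS trend (degree 1, span 0.75) and SEs from 1000 redraws of the animals. Correlations used 100000 permutations, 2-sided (scipy 1.17.1). The edgeR fits by year and RIN and the overdispersion fit were tested on simulated counts, drawn independently for each gene and animal. Those counts held no kinship and no outlier hearts, so they cannot show how the fits behave with either.

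The genes and lists were chosen with earlier results of these data known. Named are the CLK and SRRM genes, per family up to 5 called genes per direction with the smallest p by year or RIN and the gene with the largest p, 2 called genes per direction of each pathway list, and the 3 highest and 3 lowest dispersions. HNRNPC, HNRNPF, HNRNPH1, HNRNPH2, SF3A1, SF3A2, SF3B1, SF3B2, SF3B4, SRSF7, SRSF8, SRSF12 and U2AF1 lie outside this rule; they are range ends or members of a count, picked once their values were known.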

Additional observations from a re-analysis of the deposited data

How the results depend on the processing

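Settings chosen after seeing the data were the authors' score, both count totals as library size, the fit without the 9 hearts and the single earlier date; the other settings were planned. Calls of the 54 genes by year, 17 higher and 4 lower as reported, were 10 and 2 without the 5 hearts of highest mitochondrial share, 4 and 0 with that share as a term, 3 and 0 in Yerkes animals, 7 and 1 with the score, 8 and 7 with the gene count total, 3 and 2 without the 9 hearts and 4 and 1 with the single earlier date. In the same order the other splicing genes, 23 and 10 as reported, gave 15 and 2, 8 and 0, 9 and 0, 9 and 0, 11 and 24, 9 and 2, and 9 and 1, and their lower calls were 5 with no filter, 6 with the filter at 6 CPM, 4 with RIN as a term and 6 with the orthologous exon total. LUC7L3 and SRRM2 were called in all 17 alternatives, and the edgeR, DESeq2 or limma adjusted p of CLK1 ranged from 0.000764 to 0.53. Signs of the year difference turned in 1 alternative or more for 22 of the 54 genes, none of them called as reported. The largest of these estimates was that of SRSF12, 0.48, which was at -0.0473 without the 9 hearts, and SF3B4 alone was called with the opposite sign, at -0.27 without the 9 hearts (edgeR adjusted p = 0.0287) against 0.04. Among the genes followed by name through each setting, 6 turned. SRSF3 was at -0.27 with the score (in SD units, as all score values), -0.0139 with the gene count total, -0.0774 without the 9 hearts and -0.0377 with the single date. HNRNPM was at -0.0117 without 537 and Little_R, -0.0088 without the 5 hearts, -0.0054 in Yerkes animals, -0.11 with the score, -0.18 with the gene count total and -0.0118 with the single date. LUC7L2 was at 0.0012 with no filter, 0.0343 at 6 CPM, 0.0123 without 537 and Little_R, 0.0094 with RIN, 0.35 with the score and 0.0397 with the orthologous exon total. SF3B6 was at 0.0093, 0.0273, 0.0182, 0.0117, 0.17 and 0.0224 in those 6 settings, and at 0.0748 without the 5 hearts, 0.11 with the mitochondrial term and 0.15 without the 9 hearts. U2AF2 was at -0.48 with the score, -0.10 with the gene count total and -0.0042 without the 9 hearts, and HNRNPUL2 at 0.0069 with the mitochondrial term, 0.17 with the score and 0.0402 without the 9 hearts. With RIN, 1 gene was called without the 5 hearts. The median dispersion of the genes was -0.47 in the earlier hearts alone. The cause of these changes was not tested. At these depths the lowest count of any of the 54 genes in a library was 23, for HNRNPA1L2. No paired analysis was possible because each animal gave 1 library. The alternative with orthologous exon counts per gene was not run, since their identifiers could not be named.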
